A study of Mus musculus with 18 samples.

Results

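Serpins are a family of proteins that share a fold with an exposed reactive loop, and 8 genes of this family were followed in cultured mouse cardiac fibroblasts. The genes were Serpina3n, Serpinb1a, Serpinb6a, Serpinb9, Serpine2, Serpinf1, Serpinh1 and Serping1, taken by symbol from a table of 18264 genes that holds 50 genes with a Serpin symbol. Serpina3n, Serpinb1a and Serpinf1 were chosen by their strong response in the FPKM values of these same libraries, so their values are a description and carry no test. All 8 had a mean of at least 1 FPKM (fragments counted, scaled to gene length and to the library total), as did 10 other serpin genes. The remaining 32 had a mean below 1 FPKM over the 18 libraries, and 3 of them were listed at 0 throughout.

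RNA sequencing had been done on neonatal ventricular cardiac fibroblasts in 6 groups of 3 libraries. In the knockdown arm, si-Foxm1+Ang-II cells received siRNA against Foxm1 and the peptide hormone angiotensin II, Ang-II cells the hormone, si-Foxm1 cells the siRNA, and si-NC cells a negative control siRNA. In the overexpression arm, OE-Foxm1 cells overexpressed Foxm1 and OE-NC cells were the negative control. Foxm1 encodes a forkhead transcription factor of proliferating cells. The labels do not give the mouse strain, the dose or duration of the hormone, the overexpression vector, or whether the Ang-II cells also received a control siRNA, and nothing in them ties the libraries to separate cultures or animals. The p-values therefore measure the spread between these libraries, which may be technical.

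An inhibitory serpin offers its reactive loop as bait: the protease cleaves the loop, the serpin changes shape, and the enzyme is trapped in a covalent complex. Clade A serpins are mostly secreted plasma proteins, clade B serpins lack a classical signal peptide and act mainly inside cells, and other clades act on thrombin, plasminogen activators or complement. Some family members, such as pigment epithelium-derived factor and the collagen chaperone HSP47, have kept the fold and lost protease inhibition. In the heart, fibroblasts secrete serpins that restrain matrix and clotting proteases, and use HSP47 to fold the procollagen they export.

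The libraries held between 14988993 and 19343343 counted fragments, and OE-NC was the shallowest group. The labels were checked against Foxm1, which averaged 3.32 ± 0.262 FPKM in si-Foxm1+Ang-II and 4.64 ± 0.880 FPKM in Ang-II, 5.97 ± 0.793 FPKM in si-Foxm1 and 10.1 ± 0.408 FPKM in si-NC, and 455 ± 48.7 FPKM in OE-Foxm1 and 16.6 ± 0.803 FPKM in OE-NC (SD, n = 3 each). Ang-II replicate 3 stood apart from its group, with a mean chi-square over 12536 genes of 5.03 and 5.46 against the other Ang-II libraries, where all other pairs within groups lay between 1.69 and 2.88. Markers of fibroblasts were all above 0, and markers of other cells were present too. The summed level of 13 fibroblast markers was 5182 to 5337 FPKM in si-Foxm1+Ang-II and 5435 to 5766 FPKM in Ang-II. It was 4330 to 4562 FPKM in si-Foxm1 and 4740 to 4943 FPKM in si-NC, and 4872 to 4957 FPKM in OE-Foxm1 and 4299 to 4517 FPKM in OE-NC. In every group this sum lay below that of the cardiomyocyte markers. The summed level of 16 cardiomyocyte markers was 5944 to 6128 FPKM in si-Foxm1+Ang-II and 10660 to 11688 FPKM in Ang-II, 7784 to 8279 FPKM in si-Foxm1 and 14285 to 15388 FPKM in si-NC, and 9129 to 9498 FPKM in OE-Foxm1 and 8117 to 8638 FPKM in OE-NC. That of 14 macrophage and leukocyte markers was 134 to 154 FPKM in si-Foxm1+Ang-II and 322 to 354 FPKM in Ang-II, 136 to 169 FPKM in si-Foxm1 and 268 to 274 FPKM in si-NC, and 278 to 317 FPKM in OE-Foxm1 and 201 to 218 FPKM in OE-NC. The part of these cells in the serpin values was not tested. In these bulk libraries, fewer cells of a type and less RNA per cell cannot be told apart.

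Promoter windows from RefSeq (GRCm38.p6, 250 bases before to 50 after an annotated start) matched 6 of the 8 genes, and those of 3 Serpina3 genes are shown because these genes of chromosome 12 had the highest log2(FPKM + 1) fold changes under Foxm1 overexpression among the serpins with a mean of at least 1 FPKM. The rarer Serpina3f, of the same chromosome, had a higher ratio of means, at 21.9. The windows are chr12:104406458-104406757 for Serpina3n, chr12:104235897-104236196 for Serpina3g and chr12:104262872-104263171 for Serpina3i, all on the + strand and written 5′ to 3′. Capitals mark a forkhead core (TAAACA) in Serpina3n and a STAT site (TTCNNNGAA) in Serpina3g and Serpina3i.
Serpina3n: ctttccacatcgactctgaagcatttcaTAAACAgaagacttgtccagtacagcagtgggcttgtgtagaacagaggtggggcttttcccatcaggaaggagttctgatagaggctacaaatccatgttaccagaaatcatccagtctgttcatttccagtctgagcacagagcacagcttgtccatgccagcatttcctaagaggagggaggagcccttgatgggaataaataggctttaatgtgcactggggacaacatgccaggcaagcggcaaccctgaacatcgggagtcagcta
Serpina3g: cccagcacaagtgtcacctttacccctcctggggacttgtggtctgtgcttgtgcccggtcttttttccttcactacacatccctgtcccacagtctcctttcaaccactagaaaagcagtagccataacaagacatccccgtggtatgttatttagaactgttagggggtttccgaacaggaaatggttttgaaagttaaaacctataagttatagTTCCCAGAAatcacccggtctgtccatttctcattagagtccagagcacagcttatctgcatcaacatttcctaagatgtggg
Serpina3i: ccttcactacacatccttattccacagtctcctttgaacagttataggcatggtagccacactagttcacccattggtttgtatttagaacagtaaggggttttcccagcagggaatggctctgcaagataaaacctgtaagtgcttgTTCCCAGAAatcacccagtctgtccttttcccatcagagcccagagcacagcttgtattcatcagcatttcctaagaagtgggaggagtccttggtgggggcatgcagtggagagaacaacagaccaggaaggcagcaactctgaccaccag
The Serpina3n window holds the forkhead core at bases 29 to 34 and has no match to the STAT letters. The Serpina3g window holds TTCCCAGAA at bases 218 to 226, and the Serpina3i window holds the same 9 letters at bases 149 to 157. Both strands were searched, and over 32851 RefSeq promoter windows of this length the forkhead core was present in 13.4% and the STAT letters in 8.30%. The heat shock element GAANNTTC was searched too, since Serpinh1 is a heat shock gene, and was present in 7.86% of windows. Of the other members, Serpinb9 held the forkhead core on both strands and Serpinb6a held 2 matches to the STAT letters. The forkhead core was also in the windows of Serpina3c, Serpinb1c, Serpinb6b and Serpina3f, and the STAT letters in that of Serpina3f. No match to these motifs or to TATAAA (13.6% of windows) was present in the windows of Serpine2, Serpinf1 or Serpinh1.

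Levels per length spanned 2 orders of magnitude. Serpinh1 averaged 1006 FPKM over the 18 libraries, rank 25 of all genes, followed by Serpinb6a at 110 FPKM, Serpinf1 at 107 FPKM, Serpine2 at 69.8 FPKM, Serping1 at 60.4 FPKM, Serpina3n at 40.7 FPKM, Serpinb1a at 15.0 FPKM and Serpinb9 at 7.73 FPKM. The genes differed in how far they moved. The ratio of the highest to the lowest library was 6.98 for Serpinb1a, 5.39 for Serpina3n, 5.27 for Serping1 and 2.78 for Serpinf1. It was 1.48 for Serpine2, 1.41 for Serpinb9, 1.38 for Serpinh1 and 1.35 for Serpinb6a. Even the lowest library held 219 fragments of Serpinb1a, so counting error was small beside these ratios.

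**Figure D1:**
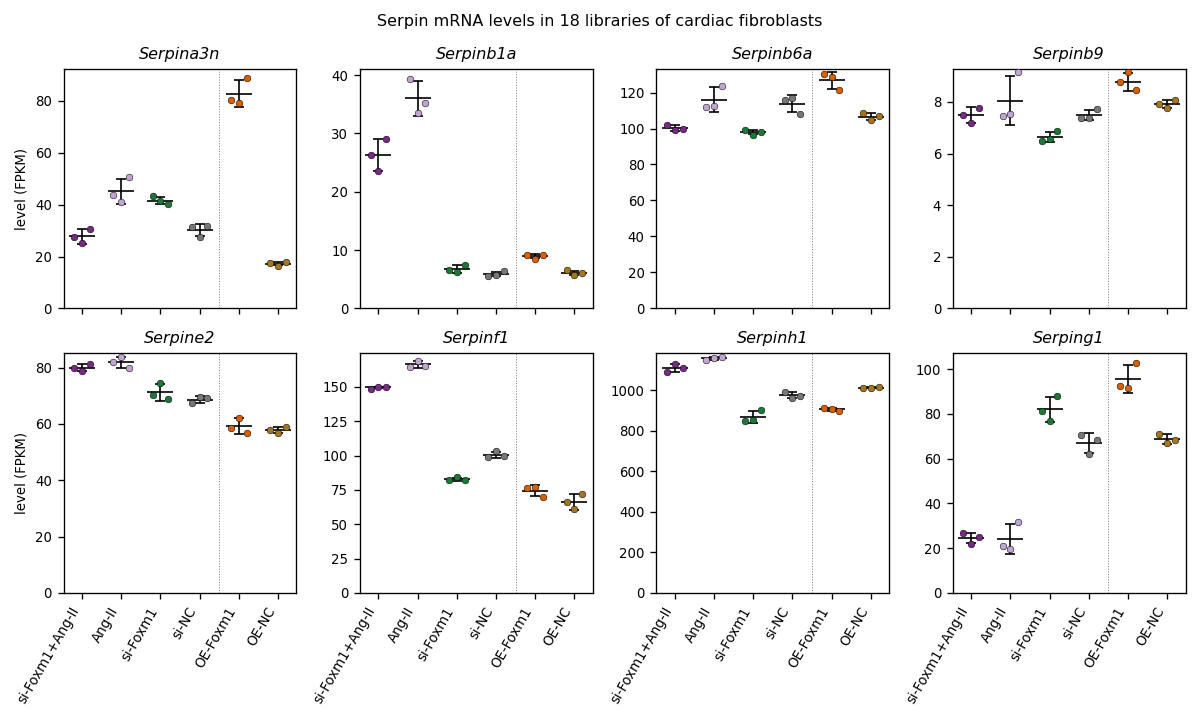
Level of each of the 8 serpin genes in FPKM (vertical axes from 0, a scale for each gene) in every library, by group, with the group mean and SD as bars and 3 libraries per group. Serpina3n is highest in OE-Foxm1 at 79.2 to 88.6 FPKM, Serpinb1a in Ang-II at 33.5 to 39.4 FPKM, and Serping1 is lowest in the 2 groups given angiotensin II. The dotted line separates the knockdown arm from the overexpression arm.

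Fold changes are differences of mean log2(FPKM + 1) between groups of 3 libraries, given ± standard error and tested with limma over all genes that had a mean of at least 1 FPKM in the arm and called at an adjusted p under 0.05. Much of the transcriptome was called, so a call on its own says little about a serpin. For the siRNA alone (si-Foxm1 against si-NC), 65.7% of 11180 genes passed (48.5% higher, 17.2% lower). Of the 5 serpins open to a test, 3 passed, and these, Serpinb6a, Serpinb9 and Serpinh1, fell. For the hormone (Ang-II against si-NC), 44.5% were called, 15.2% higher and 29.2% lower, and Serpine2 and Serpinh1 rose while Serping1 fell. For the siRNA under the hormone (si-Foxm1+Ang-II against Ang-II), 61.4% were called, 44% higher and 17.4% lower, and Serpinb6a was the 1 of these 5 to pass, as lower. After median-of-ratios scaling Serpinb9, Serpine2 and Serpinh1 passed as lower too, 4 of 5, and after quantile normalization 2 passed as lower and 1 as higher. For the hormone in siRNA-treated cells (si-Foxm1+Ang-II against si-Foxm1), 47.5% were called, 12.9% higher and 34.6% lower, and again Serpine2 and Serpinh1 rose and Serping1 fell, with Serpinb6a and Serpinb9 also higher after median-of-ratios scaling. For overexpression (OE-Foxm1 against OE-NC), 55.1% of 11259 genes passed (27.1% higher, 28% lower), and Serpinb6a, Serpinb9 and Serping1 rose while Serpinh1 fell. The Ang-II against si-NC and si-Foxm1 against si-NC comparisons share the si-NC libraries, and the other comparisons of the knockdown arm share libraries in the same way, so they are not independent of each other.

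The split between higher and lower calls moved with the scaling of the libraries. After median-of-ratios scaling there were 2954 genes higher and 3273 lower in place of 5418 and 1924 for the siRNA, 2481 and 2424 in place of 1702 and 3268 for the hormone, 3082 and 3116 in place of 4918 and 1942 for the siRNA under the hormone, and 2466 and 2267 in place of 1441 and 3873 for the hormone in siRNA-treated cells. The median fold change of all genes was 0.11 for the siRNA alone and between -0.07 and 0.09 in the other comparisons. For the 8 members, fold changes for the siRNA alone are therefore also given relative to that median. Values of other serpins, and those for the siRNA under the hormone, where the median was 0.09, are given without this step. Of the 15 serpin genes at a mean of at least 1 FPKM that were not picked for their response, 3 were higher and 8 lower with the siRNA, with a median of -0.15. With the hormone 4 were higher and 7 lower (5 and 6 after median-of-ratios scaling, 5 and 5 after quantile normalization), with a median of -0.05 against -0.03 for all genes. With the siRNA under the hormone 2 were higher and 5 lower, with a median of -0.03 against 0.09 for all genes. That count was 1 and 8 after median-of-ratios scaling, 4 and 5 without Ang-II replicate 3, and 1 and 3 without Ang-II replicate 1 or si-Foxm1+Ang-II replicate 1. In OE-Foxm1 8 of 15 were higher and 1 lower, with a median of 0.25 against -0.00 for all genes. Of the rarer serpins, Serpina9 averaged 2.87 FPKM, Serpini1 4.94 FPKM and Serpinb8 3.22 FPKM over the 18 libraries, and Serpini1 was higher with the siRNA by 0.25 ± 0.06 (adjusted p = 0.00219), a call lost at 0.14 after median-of-ratios scaling (adjusted p = 0.0545) and at 0.13 after quantile normalization (0.0768).

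**Figure D2:**
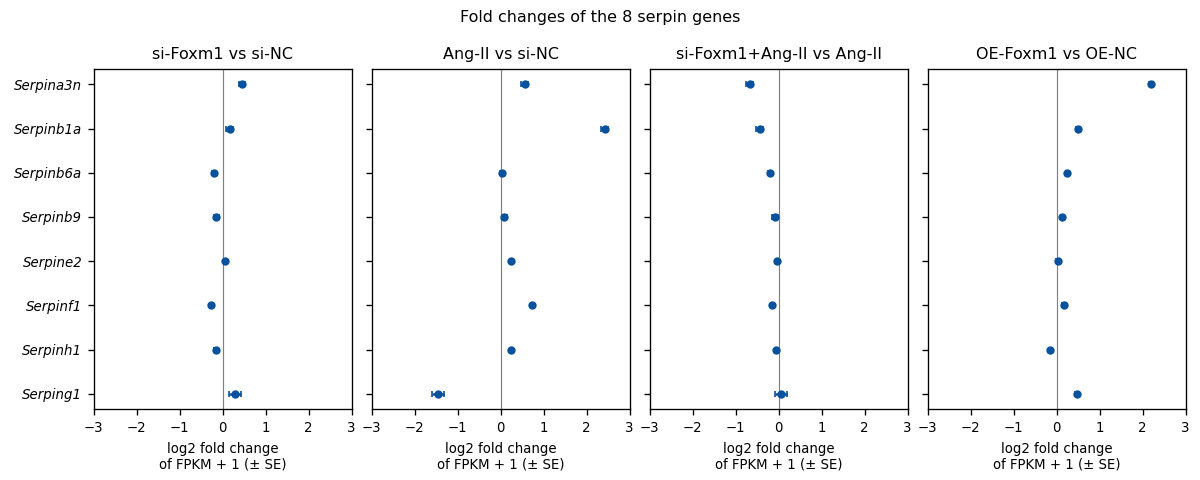
Log2 fold change of FPKM + 1 with its standard error (horizontal axes, zero line in grey) for the 8 serpin genes in 4 comparisons, each of 3 libraries against 3. The points farthest from 0 are Serpinb1a in Ang-II against si-NC at 2.42, Serpina3n in OE-Foxm1 against OE-NC at 2.20 and Serping1 in Ang-II against si-NC at -1.46.

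Serpina3n encodes a secreted clade A serpin, one of several mouse counterparts of the human acute-phase protein alpha-1-antichymotrypsin, and inhibits granzyme B and leukocyte elastase. Its level was 80.4, 79.2 and 88.6 FPKM in the OE-Foxm1 libraries, against 17.5, 16.4 and 17.7 FPKM in OE-NC. Every OE-Foxm1 library was far above every OE-NC library. The ratio of the means was 4.80 and the log2 fold change 2.20 ± 0.05. Leaving out any 1 library or changing the scaling, filter or pseudocount kept this value between 2.15 and 2.26.

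In the knockdown arm, the siRNA and the hormone each went with more Serpina3n than in si-NC, and the combination with less than either alone. The si-Foxm1+Ang-II libraries held 27.3, 25.1 and 30.7 FPKM of Serpina3n, against 43.7, 40.9 and 50.5 FPKM in Ang-II. The si-Foxm1 libraries held 43.1, 41.4 and 40.1 FPKM, against 31.3, 27.7 and 31.7 FPKM in si-NC. In both pairs the 2 groups did not overlap, and the siRNA group was the lower one with the hormone and the higher one without it. The log2 fold change was -0.68 ± 0.08 for the siRNA under the hormone and 0.45 ± 0.08 for the siRNA alone, where it stood 0.34 above the median of all genes. The difference between these siRNA effects was -1.13 ± 0.11. The hormone itself gave 0.56 ± 0.08 against si-NC in cells without the siRNA, and -0.57 ± 0.08 against si-Foxm1 in cells with it. Without Ang-II replicate 3, which had the highest Serpina3n level of its group, the siRNA under the hormone gave -0.60 and the difference between siRNA effects -1.04. Ordered by mean, Serpina3n stood at 82.7 ± 5.14 FPKM in OE-Foxm1, 45.0 ± 4.93 in Ang-II, 41.5 ± 1.49 in si-Foxm1, 30.2 ± 2.19 in si-NC, 27.7 ± 2.84 in si-Foxm1+Ang-II and 17.2 ± 0.676 in OE-NC. Ang-II and si-Foxm1 overlapped, as did si-NC and si-Foxm1+Ang-II, and the other neighbours in this order did not.

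Serpina3n has close relatives on chromosome 12, of which Serpina3c, Serpina3g and Serpina3i had a mean of at least 1 FPKM. These genes arose by duplication and are near-identical in places, so fragments may have been dropped or exchanged between them in counting, and their values are uncertain to that extent. Serpina3g, which encodes an inhibitor of cathepsins in haematopoietic cells, had 18.4, 16.4 and 22.6 FPKM in OE-Foxm1, against 1.36, 1.30 and 1.57 FPKM in OE-NC. The groups lay far apart, and the log2 fold change was 3.05 ± 0.10 (adjusted p = 6.49e-09). Serpina3i had 5.50, 5.96 and 5.69 FPKM in OE-Foxm1, against 0.882, 1.09 and 1.34 FPKM in OE-NC. It rose by 1.68 ± 0.08 (adjusted p = 1.21e-07), again without overlap. Serpina3c rose less, with 4.15 ± 0.356 FPKM in OE-Foxm1 and 2.16 ± 0.314 FPKM in OE-NC and a log2 fold change of 0.71 ± 0.08 (adjusted p = 3.79e-05). Serpina3f, a gene of the same chromosome, had a mean below 1 FPKM over the 18 libraries and was singled out after its values were seen. It reached the filter of the overexpression arm only through OE-Foxm1, with 2.23 FPKM in OE-Foxm1 and 0.102 FPKM in OE-NC, so no call is given. It had 91, 52 and 128 counted fragments in OE-Foxm1 and 2, 6 and 3 in OE-NC.

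The Serpina3 genes did not share a pattern in the knockdown arm. Serpina3i followed the hormone: it averaged 5.40 ± 0.373 FPKM in Ang-II and 2.16 ± 0.408 FPKM in si-NC, a rise of 1.03 ± 0.09 (adjusted p = 7.59e-07). Serpina3g and Serpina3c went the other way with the hormone. Serpina3g fell to 0.720 ± 0.276 FPKM in Ang-II, against 1.53 ± 0.229 FPKM in si-NC (log2 fold change -0.56, adjusted p = 0.00143). Serpina3c fell to 1.02 ± 0.150 FPKM in Ang-II, against 2.29 ± 0.537 FPKM in si-NC (log2 fold change -0.69, adjusted p = 2.48e-04). With the siRNA alone both were higher, Serpina3g by 0.82 ± 0.12 (adjusted p = 3.93e-05) and Serpina3c by 0.62 ± 0.12 (adjusted p = 3.55e-04). Under the hormone Serpina3c was again higher with the siRNA, by 0.55 ± 0.12 (adjusted p = 9.29e-04), while Serpina3i gave -0.22 ± 0.09 (adjusted p = 0.0471) and Serpina3g gave 0.23 ± 0.12 (adjusted p = 0.0959). The Serpina3i call was lost without Ang-II replicate 1 or 3, any si-Foxm1 replicate, si-Foxm1+Ang-II replicate 1 or 3, or si-NC replicate 1 (adjusted p = 0.05 to 0.184). It was also lost with 0.1 as pseudocount (0.0774), with the filter at 0.1 FPKM (0.0563) and without a filter (0.0968). Serpina3g passed without Ang-II replicate 3 (0.0195) or si-Foxm1+Ang-II replicate 3 (0.0444). The siRNA effect under the hormone minus that without it was -0.58 ± 0.17 for Serpina3g (adjusted p = 0.127, and 0.0442 without Ang-II replicate 2), -0.20 ± 0.13 for Serpina3i (adjusted p = 0.497) and -0.07 ± 0.16 for Serpina3c (adjusted p = 0.906), and none of the 3 passed the limma test with all libraries in it.

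**Figure D3:**
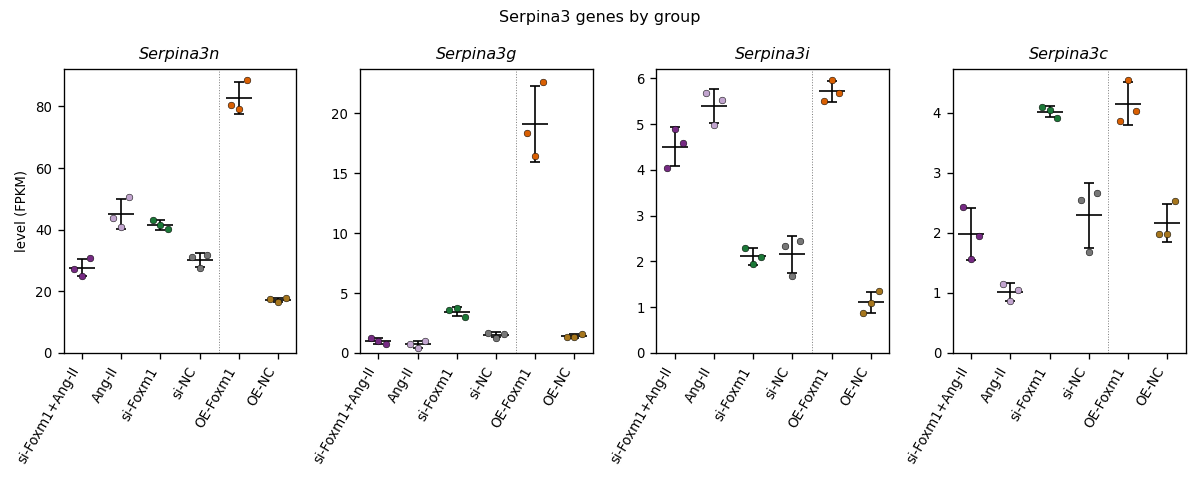
Level of the 4 Serpina3 genes with a mean of at least 1 FPKM (vertical axes in FPKM, from 0) in every library, by group, with group mean and SD as bars and 3 libraries per group. In all 4 the OE-Foxm1 libraries lie above those of OE-NC, while in the knockdown arm Serpina3i is high in both groups given angiotensin II, and Serpina3g and Serpina3c are lowest by mean in Ang-II.

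Genes of the acute-phase response and of STAT3 signalling, the pathway that drives Serpina3n in liver and astrocytes, were set beside it. Of 13 such genes tested, 12 passed in OE-Foxm1, all of them higher, where 27.1% of all genes tested were higher. Lcn2 and Saa3 reached the filter of this arm only through OE-Foxm1, so their calls followed from the filter, and the count above includes them. Lcn2, a siderophore-binding protein, had 3.93 ± 0.549 FPKM in OE-Foxm1 and 0.294 ± 0.136 FPKM in OE-NC (log2 fold change 1.93 ± 0.10). Cp, the copper-carrying ferroxidase ceruloplasmin, had 11.5 ± 0.297 FPKM in OE-Foxm1 and 4.30 ± 0.545 FPKM in OE-NC (1.24 ± 0.07, adjusted p = 3.52e-07). Cebpd, a transcription factor of the acute phase, rose by 1.17 ± 0.05 (adjusted p = 9.18e-08), and Osmr, the oncostatin M receptor, by 0.50 ± 0.03 (adjusted p = 8.18e-07). In the knockdown arm 11 of them were tested. There, 48.5% of all genes tested were higher and 17.2% lower with the siRNA, and 15.2% and 29.2% with the hormone. The siRNA raised 3 and lowered 3 (1 and 4 after median-of-ratios scaling, 2 and 4 after quantile normalization). The hormone raised 4 and lowered 3 (6 and 3 after either scaling, 3 and 4 without Ang-II replicate 3), with Il6, an inducer of the acute phase, at 1.29 ± 0.14 (adjusted p = 5.81e-06) and Cp at -0.61 ± 0.09 (adjusted p = 7.55e-05). Macrophage and leukocyte markers were also higher in OE-Foxm1 for 6 of 11 genes and lower for 3. Of all genes tested, 27.1% were higher and 28% lower. C1qa was among these markers only through its level in OE-NC. The part of these markers in the changes was not tested.

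Serpinb1a encodes an intracellular clade B serpin that inhibits neutrophil elastase, cathepsin G and proteinase 3. It was the serpin with the highest fold change under the hormone. Its level was 39.4, 33.5 and 35.1 FPKM in the Ang-II libraries, against 5.64, 5.70 and 6.38 FPKM in si-NC. With the siRNA it was 26.3, 23.5 and 29.1 FPKM in si-Foxm1+Ang-II, against 6.67, 6.18 and 7.44 FPKM in si-Foxm1. Every library given the hormone was more than 3 times above every library of the knockdown arm without it. The ratio of the means was 6.10 without the siRNA (log2 fold change 2.42 ± 0.08) and 3.89 with it (1.81 ± 0.08).

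The siRNA went with less Serpinb1a under the hormone, where the si-Foxm1+Ang-II and Ang-II libraries listed above did not overlap and the log2 fold change was -0.44 ± 0.08. Without the hormone the si-Foxm1 and si-NC libraries overlapped, and the log2 fold change was 0.17 ± 0.08 (0.10 to 0.22 with 1 library left out), or 0.05 above the median of all genes. The difference between these siRNA effects was -0.61 ± 0.11. Overexpression gave 9.18, 8.54 and 9.16 FPKM of Serpinb1a in OE-Foxm1, against 6.51, 5.72 and 6.01 FPKM in OE-NC. These did not overlap, and the log2 fold change was 0.49 ± 0.05. By mean the order was 36.0 ± 3.02 FPKM in Ang-II, 26.3 ± 2.80 in si-Foxm1+Ang-II, 8.96 ± 0.360 in OE-Foxm1, 6.76 ± 0.635 in si-Foxm1, 6.08 ± 0.399 in OE-NC and 5.91 ± 0.410 in si-NC, and the last 3 of these overlapped. 

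Serpinb6a, an inhibitor of cathepsin G that many cell types make, changed little and in a regular way. Its level was 102, 99.3 and 99.6 FPKM in si-Foxm1+Ang-II, against 112, 112 and 124 FPKM in Ang-II. In si-Foxm1 it was 99.2, 96.6 and 98.2 FPKM, against 116, 117 and 108 FPKM in si-NC. The siRNA libraries lay below their controls in both pairs, with a log2 fold change of -0.21 ± 0.04 under the hormone (adjusted p = 4.80e-04) and -0.21 ± 0.04 without it (adjusted p = 3.55e-04), where it stood at -0.32 relative to the median of all genes. The difference between these siRNA effects was 0.01 ± 0.06, with a 95% interval of -0.11 to 0.13 (adjusted p = 0.984). Overexpression went the other way: OE-Foxm1 had 130.1, 129 and 121 FPKM, against 108, 105 and 107 FPKM in OE-NC, a rise of 0.25 ± 0.03 (adjusted p = 1.24e-04). For the hormone the log2 fold change of Serpinb6a was 0.03 ± 0.04 (95% interval -0.06 to 0.11, adjusted p = 0.602). Among the 5 members open to a test, Serpinb6a was the 1 that passed as lower in both siRNA comparisons and as higher with overexpression, joined by Serpinb9 after median-of-ratios scaling or quantile normalization.

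Serpinb9 inhibits granzyme B, the protease of cytotoxic lymphocytes, and was the least abundant of the 8 genes. It had 6.50, 6.57 and 6.87 FPKM in si-Foxm1, against 7.38, 7.37 and 7.73 FPKM in si-NC, and 8.76, 9.15 and 8.44 FPKM in OE-Foxm1, against 7.90, 7.77 and 8.07 FPKM in OE-NC. Neither pair overlapped. The log2 fold change was -0.15 ± 0.06 with the siRNA (adjusted p = 0.0406; -0.26 relative to the median of all genes) and 0.13 ± 0.04 with overexpression (adjusted p = 0.0249). With 1 library left out the values stayed between -0.17 and -0.13 and between 0.11 and 0.16, but both calls lay near the threshold. The first was lost without a filter on low values (adjusted p = 0.0734) and on leaving out si-NC replicate 1 (adjusted p = 0.0634), 2 (0.0617) or 3 (0.120), si-Foxm1 replicate 1 (0.106) or 2 (0.0944), or si-Foxm1+Ang-II replicate 1 (0.0502). The second was lost on leaving out OE-Foxm1 replicate 1 (adjusted p = 0.0589) or 2 (0.0980), or OE-NC replicate 1 (0.0560) or 2 (0.0706). Serpinb9 gave 0.09 ± 0.06 for the hormone (adjusted p = 0.280) and -0.09 ± 0.06 for the siRNA under it (adjusted p = 0.233; -0.18 and 0.0211 after median-of-ratios scaling), with 7.49, 7.19 and 7.78 FPKM in si-Foxm1+Ang-II and 7.46, 7.53 and 9.15 FPKM in Ang-II. The hormone in siRNA-treated cells gave 0.15 ± 0.06 (adjusted p = 0.0550), which passed without Ang-II replicate 1 (0.0464), 2 (0.0498) or 3 (0.00681). Serpinb9 also passed there at 0.22 after median-of-ratios scaling (0.00751) and at 0.24 after quantile normalization (0.00452). The same held with all 18 libraries in 1 fit (0.0318), a replicate block (0.0211) and voom (0.0318).

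Relatives of these intracellular genes were abundant enough to be tested as well. Serpinb6b and Serpinb9b, which lie near Serpinb9 on chromosome 13 in the GRCm38 RefSeq annotation, are close copies of Serpinb6a and Serpinb9, and fragments may have been exchanged between copies in counting. Serpinb9b averaged 58.2 FPKM in si-Foxm1 and 86.8 FPKM in si-NC (log2 fold change -0.57 ± 0.04, adjusted p = 8.69e-08), and 117 FPKM in OE-Foxm1 and 97.6 FPKM in OE-NC, a rise of 0.26 ± 0.03. Under the hormone the siRNA gave -0.30 ± 0.04. Serpinb6b gave -0.53 ± 0.06 with the siRNA (adjusted p = 4.55e-06), -0.38 ± 0.06 with the siRNA under the hormone and 0.46 ± 0.05 with overexpression, and each of these passed the test. Serpinb1c, a copy of Serpinb1a with 0.815 FPKM in si-Foxm1 and 1.98 FPKM in si-NC, fell with the siRNA by 0.72 on the log2 scale (± 0.11, adjusted p = 6.45e-05). Its log2 fold change for the hormone was -0.33 ± 0.11 (adjusted p = 0.0230), a call lost without Ang-II replicate 2 (0.0591) or 3 (0.0765) or si-NC replicate 1 (0.0626) or 2 (0.0898). The call was also lost without a filter (0.0503) and after quantile normalization (0.0969). Serpinb8 fell with the hormone, at -0.34 ± 0.06 (adjusted p = 2.20e-04). Macrophage and leukocyte markers fell with the siRNA for 11 of 11 genes with and without the hormone. Of all genes tested, 17.2% were lower with the siRNA without the hormone and 17.4% under it. Mrc1, 1 of these markers, reached the filter of this arm only through si-NC (1.83 FPKM, against 0.982 FPKM over the other groups). Its fall against si-NC thus followed in part from the filter. The part of these markers in the changes of clade B genes was not tested.

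Among granule and lysosomal genes, mostly proteases and only some of them targets of clade B serpins, 6 of 7 tested rose with the hormone, with a median of 0.30. Of all genes tested, 15.2% were higher with the hormone. Ctsl, the cysteine protease cathepsin L, averaged 365 ± 4.30 FPKM in Ang-II and 271 ± 9.77 FPKM in si-NC (log2 fold change 0.43 ± 0.03, adjusted p = 1.32e-07), and Ctsd, cathepsin D, rose by 0.38 ± 0.03 (adjusted p = 6.99e-08). Mcpt4, a mast cell chymase, was far higher with the siRNA, at 21.5 ± 0.104 FPKM in si-Foxm1 and 2.02 ± 0.228 FPKM in si-NC (2.90 ± 0.07, adjusted p = 2.97e-12). Of 9 mast cell and neutrophil markers in the table, Mcpt4 among them, 2 were abundant enough to be tested. The summed level of the 9 was 25.4 to 26.1 FPKM in si-Foxm1 and 5.57 to 5.90 FPKM in si-NC, and Mcpt4 made up most of this difference. Tpsb2, Ms4a2, Mpo and Elane were at 0 in both groups. Ctss, cathepsin S of antigen-presenting cells, averaged 27.9 ± 2.86 FPKM in si-Foxm1 and 59.4 ± 1.70 FPKM in si-NC (-1.07 ± 0.06, adjusted p = 3.67e-09). The genes for elastase, cathepsin G and proteinase 3, which Serpinb1a inhibits, were below the level tested. By Pearson correlation of log2(FPKM + 1) over the 18 libraries, a description that reflects the differences between the 6 groups, the genes most like Serpinb1a among 11235 were Ctsl (0.98), Ikbip (0.97) and Krt80 (0.97). Those most like Serpina3n were Ccng2 (0.93), Rnf181 (0.92) and Cers4 (0.91).

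Serpine2 encodes protease nexin 1, a secreted and cell-bound inhibitor of thrombin and of the plasminogen activator urokinase. It followed the hormone by a small and even step. Its level was 81.9, 83.7 and 79.9 FPKM in Ang-II, against 67.4, 69.5 and 69.1 FPKM in si-NC, and 79.7, 78.8 and 81.4 FPKM in si-Foxm1+Ang-II, against 70.2, 74.7 and 69.0 FPKM in si-Foxm1. The groups with the hormone lay above those without it in both pairs. The rise was 0.25 ± 0.03 without the siRNA (adjusted p = 2.55e-05) and 0.16 ± 0.03 with it (adjusted p = 8.32e-04), and the difference between the siRNA effects was -0.09 ± 0.05 (adjusted p = 0.423). Serpine2 did not pass with the siRNA alone (0.05 ± 0.03, adjusted p = 0.163; -0.06 relative to the median of all genes), with the siRNA under the hormone (-0.03 ± 0.03, adjusted p = 0.391; -0.13 and 0.00392 after median-of-ratios scaling) or with overexpression (0.03 ± 0.04, 95% interval -0.05 to 0.11, adjusted p = 0.531). OE-Foxm1 had 58.5, 62.2 and 56.6 FPKM and OE-NC 58.0, 56.8 and 58.9 FPKM.

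Plasminogen activators went down with the hormone: Plau, urokinase, averaged 5.06 ± 0.406 FPKM in Ang-II and 13.5 ± 0.103 FPKM in si-NC (-1.26 ± 0.07, adjusted p = 3.17e-08), and Plat, tissue plasminogen activator, 8.82 ± 2.57 FPKM in Ang-II and 24.7 ± 1.55 FPKM in si-NC (-1.42 ± 0.13, adjusted p = 1.57e-06). Lrp1, the receptor that clears serpin and protease complexes, averaged 181 ± 7.26 FPKM in Ang-II and 116 ± 2.71 FPKM in si-NC, a rise of 0.64 ± 0.03 (adjusted p = 6.34e-09). Of the whole plasminogen and thrombin list, 13 genes were tested. The hormone raised 4 and lowered 6, the siRNA raised 4 and lowered 7 (1 and 7 after median-of-ratios scaling or quantile normalization), and under the hormone the siRNA raised 2 and lowered 5. Overexpression raised 4 of 14 and lowered 7. Among all genes tested, 15.2% were higher and 29.2% lower with the hormone, and 48.5% and 17.2% with the siRNA. The shares were 44% and 17.4% for the siRNA under the hormone and 27.1% and 28% for overexpression. In OE-Foxm1, Plaur, the urokinase receptor, averaged 12.4 ± 0.524 FPKM, against 23.6 ± 0.848 FPKM in OE-NC (-0.87 ± 0.04, adjusted p = 1.65e-07).

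Serping1 encodes C1 inhibitor, the plasma serpin that blocks the complement proteases C1r and C1s, kallikrein and factor XII. Of the 5 serpins open to a test it changed most, and it went down with the hormone. Its level was 21.0, 19.5 and 31.9 FPKM in Ang-II, against 70.7, 62.0 and 68.3 FPKM in si-NC. With the siRNA it was 26.6, 21.9 and 25.0 FPKM in si-Foxm1+Ang-II, against 81.5, 76.6 and 88.0 FPKM in si-Foxm1. Libraries with and without the hormone stood far apart, and Ang-II replicate 3 was the highest of those with it. The log2 fold change was -1.46 ± 0.13 without the siRNA (adjusted p = 1.19e-06) and -1.70 ± 0.13 with it (adjusted p = 3.67e-07), the means standing at 0.361 and 0.299 times those of the cells without the hormone.

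The siRNA values of Serping1 lay near the threshold, and the groups of the arm share 1 estimate of the spread. Without the hormone the si-Foxm1 libraries were all above the si-NC libraries, at 0.29 ± 0.13, which did not pass (adjusted p = 0.0706; 0.18 relative to the median of all genes) and passed at the same size without Ang-II replicate 2 (adjusted p = 0.0417) or 3 (0.00199), with all 18 libraries in 1 fit (0.0410), with a replicate block (0.0247) and, at 0.29, with voom (0.00628). Under the hormone the log2 fold change was 0.05 ± 0.13 (adjusted p = 0.768), and 0.26 without Ang-II replicate 3 (adjusted p = 0.00939). Overexpression gave 92.3, 91.7 and 103 FPKM in OE-Foxm1, against 71.2, 66.9 and 68.2 FPKM in OE-NC, a rise of 0.47 ± 0.04 without overlap (adjusted p = 1.39e-05). The siRNA effect under the hormone minus that without it was -0.24 ± 0.19, with a 95% interval of -0.64 to 0.17 (adjusted p = 0.608). Endothelial markers fell with the hormone for 7 of 9 genes, where 29.2% of all genes tested were lower. Their summed level was 62.6 to 69.4 FPKM in Ang-II and 84.4 to 91.9 FPKM in si-NC, and their part was not tested.

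The complement and contact genes around C1 inhibitor showed a mixed picture. Overexpression raised 3 of the 8 genes tested and lowered 3, with C1qa in the test only through its level in OE-NC. Among all genes tested, 27.1% were higher and 28% lower with overexpression. The shares were 48.5% and 17.2% with the siRNA and 15.2% and 29.2% with the hormone. The C1 inhibitor target C1s1 averaged 3.66 ± 0.218 FPKM in OE-Foxm1 and 1.43 ± 0.183 FPKM in OE-NC (0.94 ± 0.07, adjusted p = 2.30e-06), its partner C1ra rose by 0.78 ± 0.07 (adjusted p = 1.40e-05), and C3, the central complement protein, averaged 4.78 ± 0.708 FPKM in OE-Foxm1 and 1.54 ± 0.260 FPKM in OE-NC (1.18 ± 0.10, adjusted p = 5.13e-06). With the siRNA 5 of 8 fell, and the chains of C1q led them, C1qb at 3.06 ± 0.308 FPKM in si-Foxm1 and 5.75 ± 0.496 FPKM in si-NC (-0.73 ± 0.08, adjusted p = 5.91e-06). C1qa, C1qb and C1qc also stand on the list of macrophage markers, which fell together. With the hormone 3 rose, and C1ra was the 1 that fell, at -0.31 ± 0.08 (adjusted p = 0.00917), while Masp1, a protease of the lectin pathway, rose by 0.63 ± 0.06 (adjusted p = 1.19e-06).

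Serpinf1 encodes pigment epithelium-derived factor, a secreted protein that restrains vessel growth and does not inhibit proteases. Its level was 164, 169 and 166 FPKM in Ang-II, against 99.2, 103 and 99.8 FPKM in si-NC, and 149, 150.1 and 149.8 FPKM in si-Foxm1+Ang-II, against 81.9, 84.1 and 82.1 FPKM in si-Foxm1. In the knockdown arm the libraries of each group lay within a few percent of each other, and no 2 of its groups overlapped. The hormone gave 0.72 ± 0.02 without the siRNA and 0.85 ± 0.02 with it. The siRNA gave -0.15 ± 0.02 under the hormone and -0.28 ± 0.02 without it (-0.39 relative to the median of all genes), a difference of 0.13 ± 0.04 between the siRNA effects. In OE-Foxm1 Serpinf1 had 76.3, 77.2 and 70.1 FPKM, against 65.9, 60.8 and 72.0 FPKM in OE-NC. These groups overlapped, with a log2 fold change of 0.17 ± 0.06 that lay between 0.11 and 0.23 when 1 library was left out. By mean the order was 166 ± 2.43 FPKM in Ang-II, 150 ± 0.701 in si-Foxm1+Ang-II, 101 ± 2.16 in si-NC, 82.7 ± 1.23 in si-Foxm1, 74.5 ± 3.88 in OE-Foxm1 and 66.3 ± 5.60 in OE-NC.

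The 3 genes most like Serpinf1 over the 18 libraries were Fibin and Fbln5 (0.99 each), which encode a secreted protein and the elastic fibre protein fibulin 5, and Fstl1 (0.99), a secreted follistatin-like protein. Of the receptors and partners described for pigment epithelium-derived factor, 5 were tested, and the hormone raised 2 and lowered 2 (2 and 1 after median-of-ratios scaling). Plxdc2, a transmembrane receptor of the factor, averaged 11.1 ± 0.183 FPKM in Ang-II and 7.85 ± 0.172 FPKM in si-NC (0.45 ± 0.04, adjusted p = 2.30e-06), while Pnpla2, the lipase described as another receptor, fell, at -0.12 ± 0.03 (adjusted p = 0.00961). With the siRNA 3 of 5 rose, among them Pnpla2 at 0.25 ± 0.03 (adjusted p = 1.95e-05), but after median-of-ratios scaling 1 rose and 2 fell. Among all genes tested, 15.2% were higher and 29.2% lower with the hormone, and 48.5% and 17.2% with the siRNA.

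Serpinh1 encodes HSP47, the chaperone of the endoplasmic reticulum that binds procollagen and does not inhibit proteases. Its level was 1151, 1159 and 1166 FPKM in Ang-II, against 992, 964 and 972 FPKM in si-NC, and 1092, 1132 and 1109 FPKM in si-Foxm1+Ang-II, against 847, 853 and 905 FPKM in si-Foxm1. The hormone raised it in both pairs, by 0.25 ± 0.03 (adjusted p = 1.05e-05) without the siRNA and by 0.36 ± 0.03 (adjusted p = 4.98e-07) with it. With the siRNA alone it fell, with a log2 fold change of -0.17 ± 0.03 (adjusted p = 1.78e-04; -0.28 relative to the median of all genes). This siRNA call was lost under quantile normalization, at -0.06 (adjusted p = 0.194). Under the hormone the siRNA gave -0.06 ± 0.03 (adjusted p = 0.0815), a value whose sign depended on the scaling, at -0.16 with median-of-ratios scaling (adjusted p = 5.07e-04) and 0.11 with quantile normalization (adjusted p = 0.0207). Serpinh1 passed there at -0.06 without si-Foxm1 replicate 3 (adjusted p = 0.0417), with all 18 libraries in 1 fit (0.0487) and with voom (0.0478). In OE-Foxm1 it was also lower, at 914, 908 and 898 FPKM, against 1012, 1011 and 1018 FPKM in OE-NC (log2 fold change -0.16 ± 0.03, adjusted p = 4.83e-04). Knockdown alone and overexpression of Foxm1 thus both went with less Serpinh1 than in their controls.

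A list of procollagen genes and their partners moved mostly with Serpinh1 under the hormone. It held fibrillar collagen genes, collagen-modifying enzymes, other genes of the endoplasmic reticulum, and Hsf1. Of 24 tested, 21 rose and 1 fell with the hormone, and 20 rose and 1 fell with the hormone in siRNA-treated cells, with medians of 0.34 and 0.40. Among all genes tested, 15.2% were higher and 29.2% lower with the hormone, and 12.9% and 34.6% with the hormone in siRNA-treated cells. The fibrillar collagen genes led, with Col5a2 at 817 ± 28.0 FPKM in Ang-II and 381 ± 3.50 FPKM in si-NC (1.10 ± 0.03, adjusted p = 4.02e-11) and Col1a1 at 1355 ± 39.9 FPKM in Ang-II and 735 ± 19.1 FPKM in si-NC (0.88 ± 0.03, adjusted p = 4.32e-10). P3h1, a collagen prolyl 3-hydroxylase, rose by 0.60 ± 0.03 (adjusted p = 9.27e-09). With the siRNA 3 rose and 10 fell (2 and 18 after median-of-ratios scaling), among them the collagen-modifying enzymes P4ha1 at -0.36 ± 0.03 (adjusted p = 2.47e-07) and Plod2 at -0.51 ± 0.04 (adjusted p = 3.44e-07). With the siRNA under the hormone 5 rose and 9 fell. For all genes tested, the shares were 48.5% higher and 17.2% lower with the siRNA, and 44% and 17.4% with the siRNA under the hormone. Under overexpression the list and Serpinh1 parted: 14 of 24 rose and 1 fell, where 27.1% of all genes tested were higher and 28% lower. Col1a1 averaged 719 ± 21.4 FPKM in OE-Foxm1 and 575 ± 20.9 FPKM in OE-NC (0.32 ± 0.04, adjusted p = 3.24e-05), while Serpinh1 fell as described above. Hsf1, which encodes the heat shock factor known to drive Serpinh1, rose by 0.28 ± 0.04 in OE-Foxm1 (adjusted p = 9.53e-05) and by 0.29 ± 0.03 with the siRNA (adjusted p = 4.53e-06).

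For the serpins plotted together here, the effect of the siRNA under the hormone was set beside its effect alone. Serpina3n and Serpinb1a had positive values without the hormone and negative values with it, although the Serpinb1a groups without the hormone overlapped. Serpine2 had the same signs at 0.05 and -0.03, and Serpina3g, positive in both, gave a difference of -0.58 against -0.61 for Serpinb1a. Over all genes 0.921% of 11180 had siRNA effects that differed between these conditions in the limma test, 0.403% higher and 0.519% lower, and after median-of-ratios scaling there were 67 and 48 genes in place of 45 and 58. For the 5 members open to a test this difference ranged from -0.24 for Serping1 to 0.11 for Serpinh1, with adjusted p between 0.238 and 0.984. Among the other serpins plotted it was nearest to the threshold for Serpinb9b, at 0.27 ± 0.06 (adjusted p = 0.05005). There it passed at 0.30 after median-of-ratios scaling (0.0207), and at 0.27 to 0.28 after quantile normalization (0.0359), with all 18 libraries in 1 fit (0.0159) and with voom (0.0129). Without Ang-II replicate 3 it was 0.32 (0.00576), and without other libraries of the arm 0.23 to 0.30 (adjusted p = 0.0578 to 0.129).

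**Figure D4:**
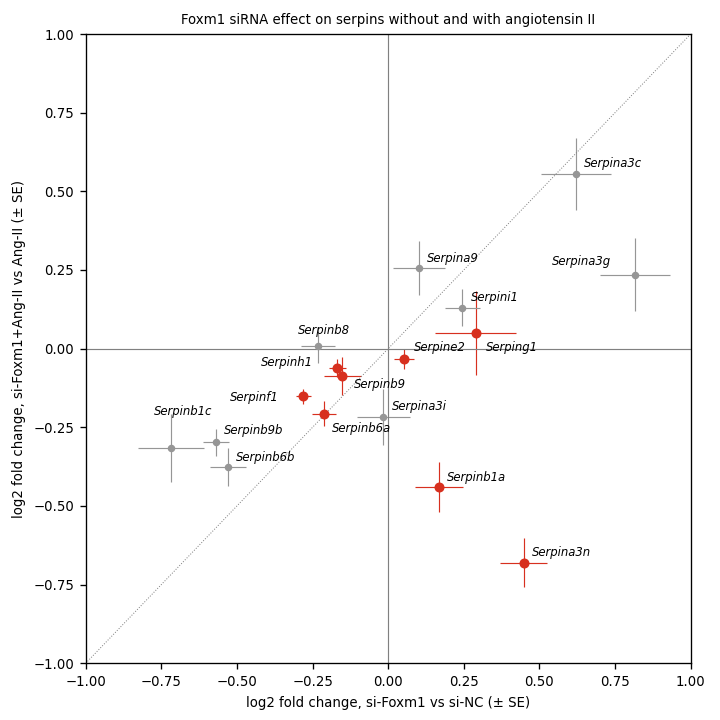
Log2 fold change of FPKM + 1 for si-Foxm1 against si-NC (horizontal axis) and for si-Foxm1+Ang-II against Ang-II (vertical axis), with standard errors, for the 8 serpin genes (red) and other serpins at 1 FPKM or more on average (grey); the dotted line marks equal effects. Serpina3n at 0.45 and -0.68 and Serpinb1a at 0.17 and -0.44 lie in the lower right, while Serpinb6a at -0.21 and -0.21 lies on the line.

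Other inhibitors of extracellular proteases gave a background of the same cells. Of 11 tested, the hormone raised 5 and lowered 4 (5 and 2 after median-of-ratios scaling, 4 and 2 after quantile normalization), the siRNA raised 4 and lowered 3 (2 and 6, and 2 and 4), and overexpression raised 5 and lowered 1. Among all genes tested, 15.2% were higher and 29.2% lower with the hormone. The shares were 48.5% and 17.2% with the siRNA and 27.1% and 28% with overexpression. Timp1, an inhibitor of matrix metalloproteinases, averaged 94.8 ± 2.82 FPKM in Ang-II and 54.0 ± 2.21 FPKM in si-NC (0.80 ± 0.04, adjusted p = 4.01e-09), and Timp2, another, 188 ± 13.3 FPKM in Ang-II and 312 ± 6.55 FPKM in si-NC (-0.73 ± 0.04, adjusted p = 1.67e-08). Timp3, which binds to the matrix, fell with the siRNA to 130.0 ± 3.97 FPKM in si-Foxm1, against 179 ± 1.85 FPKM in si-NC (-0.46 ± 0.04, adjusted p = 1.43e-07), and rose with overexpression to 128 ± 7.79 FPKM in OE-Foxm1, against 81.4 ± 3.59 FPKM in OE-NC (0.64 ± 0.05, adjusted p = 1.93e-06).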

How the data were processed

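Poly(A) RNA libraries were made with a stranded kit, per the labels' protocols. The submitters' processing notes name fastp, HISAT2, HTSeq and the mm39 build, without versions or settings, and the gene annotation and strand setting are not stated there. The authors deposited FPKM values, with genes named by symbol. Whole fragment counts were recovered from them for 17960 of 17960 genes above 0 (within 0.02), which gave the depth: 3 counts, the limit that a count of 0 allows, equal 0.155 to 0.200 FPKM for a gene of 1 kb, for counting error only.

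log2(FPKM + 1) was fitted with limma 3.58.1 (trend) in R 4.3.3, the 12 knockdown libraries in 1 fit and the 6 overexpression libraries in another, for genes with a mean of at least 1 FPKM, with Benjamini-Hochberg adjustment over all tested genes. The fits were tested on simulated data. Promoter motifs were searched in Python 3.11.15. The members, gene lists and tests were chosen with earlier results of these data known. Named were the 8 members, other serpins with a mean of at least 1 FPKM (except 1 gene, counted but not reported here), up to 4 genes of each list with the smallest p in a comparison, and the 3 genes most correlated with each member picked for its response. Other settings tried were 0.1 as pseudocount, 0.1 FPKM or no minimum as filter, median-of-ratios and quantile scaling, all 18 libraries in 1 fit, a replicate block, voom on the recovered counts, and each library left out.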

Additional observations from a re-analysis of the deposited data

Results flagged for a closer look

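Serpina3n stood out for its opposite siRNA values with and without angiotensin II. Every si-Foxm1+Ang-II library (25.1 to 30.7 FPKM) was below every Ang-II library (40.9 to 50.5 FPKM), while every si-Foxm1 library (40.1 to 43.1 FPKM) was above every si-NC library (27.7 to 31.7 FPKM). The siRNA effect with the hormone minus that without it was -1.13 on the log2 scale. Serpina3n was picked for its response in these libraries, so this difference is a description and was not tested independently.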

How the results depend on the processing

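The counts of calls in the 4 pairwise comparisons of the knockdown arm and in overexpression stayed within 1.5 times of the reported ones under every alternative run, except that of the 15 serpins not picked for their response 7 were called with the siRNA under the hormone as reported and 4 to 9 with 1 library left out (4 without Ang-II replicate 1 or si-Foxm1+Ang-II replicate 1). The count of genes whose siRNA effects differed with and without the hormone, 103 as reported, was less stable: it was 57 without a filter, 169 with all 18 libraries in 1 fit and 229 with voom on the recovered counts, and it lay between 37 (without si-Foxm1+Ang-II replicate 2) and 196 (without Ang-II replicate 3) when 1 library was left out. Of these 15 serpins 0 passed there in limma as reported (6 at an unadjusted p under 0.05), 1 after median-of-ratios scaling, quantile normalization, with all 18 libraries in 1 fit or with voom, and 0 to 2 with 1 library left out (2 without Ang-II replicate 3). Serpinh1 under the siRNA with the hormone turned to 0.11 after quantile normalization, and the cause was not tested. Samples of the same replicate number correlated in their deviations by -0.04 to 0.18, over 0.1 for replicate 2 in 4 of 5 comparisons and under 0.1 for replicates 1 and 3, so the numbers were not taken to pair the samples. With a replicate block the calls for all genes numbered 7411 with the siRNA and 137 for the difference between siRNA effects, and Serping1 with the siRNA (adjusted p = 0.0247) and Serpinb9 with the hormone in siRNA-treated cells (adjusted p = 0.0211) passed. Depth limits genes near 0.155 to 0.200 FPKM, below every member.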
